A study of Mus musculus with 15 samples.

Results

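Nucleosomes that lay at a different place in genes or their promoters were examined in C57BL/6 mice. The tissue was the nucleus accumbens, which lies in the ventral striatum and serves reward and motivation. The mice had undergone chronic social defeat or served as controls. The members are the rows of the authors' deposited H3 shift tables that carry a gene symbol and lie outside chromosome 1. They number 481 of the 5115 listed shifts: 175 in the table of susceptible against control mice, 158 for resilient against control and 148 for resilient against susceptible. They lay in 355 genes on the other chromosomes; of the 347 genes matched to RefSeq, 316 were protein coding, 24 made long non-coding RNAs and 7 were transcribed pseudogenes. Chromosome 1 was left out because it held 1081 further genic shifts for susceptible against control, but 32 and 24 in the other tables.

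Susceptible and resilient mice were placed in the cage of a CD1 mouse, which defeated them, for 10 min a day on 10 days. They were parted afterwards by a social interaction test. Control mice of the same strain carry the label Control. Per the labels' protocols, tissue from defeated mice was taken 48 h after the last defeat, punches from 10 mice were pooled per replicate, lightly fixed chromatin was cut with micrococcal nuclease, and histone H3 was precipitated. The labels tell of triplicates, yet each group had 1 H3 sample and each pair of groups 1 deposited result. There was thus no spread between replicates, no p-value and no known depth behind any shift, and none of the differences given here was tested. Exact 95% binomial intervals are given for shares. They cover counting error only and treat listed positions as independent. The tissue is a mixture of cells, so a nucleosome that moved in every cell and a changed balance of cells cannot be told apart.

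Nucleosomes, in which DNA is wrapped around a histone octamer, hinder the binding of many proteins. At active genes they leave the promoter open and stand in a regular array downstream of the start, while at silent genes they often cover it. Remodellers of the ISWI family, such as the ACF complex of ACF1 and SNF2H that this study also profiled, use ATP to slide nucleosomes along DNA and to space them evenly.

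The names of the deposited tables gave the order of the groups, and the meaning of the sign was read from checks within the tables. In 18 rows a susceptible-against-control position plus its shift was exactly a listed resilient-against-susceptible position, and in 0 rows was the position minus its shift. Of the 18, 12 lay outside chromosome 1, and 7 of those were in genes. A second check was less clear. Moved places for resilient against control and resilient against susceptible coincided in 11 rows with the shift added and in 4 with it subtracted. A listed position is therefore taken as the place in the second-named group, and a positive shift as a move to higher coordinates in the first-named group. With the opposite reading all directions given here turn round. In what follows, a downstream shift points the way the gene is transcribed and carries a positive sign, and an upstream shift points against it.

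Every one of the 481 shifts in the authors' deposited tables was 60, 70 or 80 bp long, less than the length of DNA wrapped around an octamer. For susceptible against control, 49 shifts were of 60 bp, 62 of 70 bp and 64 of 80 bp. For resilient against control these numbers were 53, 59 and 46, and for resilient against susceptible they were 40, 60 and 48. The median was 70 bp in each table, so size hardly separated the members, which are described below mainly by direction and place. Genes took up 30.2% of the shifts outside chromosome 1 for susceptible against control, 29.0% for resilient against control and 29.0% for resilient against susceptible. Among the authors' positions of changed occupancy the shares were 33.5%, 33.8% and 32.4%.

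Sequence around the gene start, called a promoter window here, could be given for some starts near a listed shift. RefSeq's table on GRCm38.p6 held a start from a gene of the same length for 11 of the 27 genes with a shift within 1000 bp of the start. These are not the nearest: apart from Olfr1283, at 101.5 bp, their shifts lay from 667.5 to 997.5 bp from the start, and no window was matched for Olfr1342, 4930545E07Rik, Sfi1, Gm13247, Rn45s, Rps19-ps3 or Pate2, whose shifts lay closer. The windows run from 250 bases before the start to 50 after it, 5′ to 3′ along the gene. The shifts themselves are listed on mm9, and their place in a window rests on the distance to the gene start. Olfr1283, an olfactory receptor gene, is shown because its shift ends inside the window (chr2:111368384-111368683, plus strand): its nucleosome is listed 101.5 bp into the gene on mm9 chromosome 2, at 111208892, and moved 70 bp upstream in susceptible mice. Capitals mark the 19 bases of the path between the listed and the moved position that fall inside the window.
Olfr1283: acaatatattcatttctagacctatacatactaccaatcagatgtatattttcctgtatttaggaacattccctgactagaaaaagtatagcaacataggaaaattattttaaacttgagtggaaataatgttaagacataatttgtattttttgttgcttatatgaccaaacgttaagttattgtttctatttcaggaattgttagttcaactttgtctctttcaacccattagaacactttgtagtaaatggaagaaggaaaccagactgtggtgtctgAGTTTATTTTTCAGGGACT
Cyp3a11, which encodes a drug-metabolising cytochrome P450, the pheromone receptor gene Vmn2r90 and the bitter taste receptor gene Tas2r102 are shown as starts whose shift lies farther off, with capitals for AAAAA or TTTTT and longer runs of A or T, which are stiff DNA. Their windows are chr5:145879805-145880104, minus strand, chr17:17703691-17703990, plus strand and chr6:132761881-132762180, plus strand.
Cyp3a11: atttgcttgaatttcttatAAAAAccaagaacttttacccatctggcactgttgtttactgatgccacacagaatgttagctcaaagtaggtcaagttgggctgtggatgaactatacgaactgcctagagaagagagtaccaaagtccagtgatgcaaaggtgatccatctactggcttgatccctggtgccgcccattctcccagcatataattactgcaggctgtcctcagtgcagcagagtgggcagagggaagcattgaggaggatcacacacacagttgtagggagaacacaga
Vmn2r90: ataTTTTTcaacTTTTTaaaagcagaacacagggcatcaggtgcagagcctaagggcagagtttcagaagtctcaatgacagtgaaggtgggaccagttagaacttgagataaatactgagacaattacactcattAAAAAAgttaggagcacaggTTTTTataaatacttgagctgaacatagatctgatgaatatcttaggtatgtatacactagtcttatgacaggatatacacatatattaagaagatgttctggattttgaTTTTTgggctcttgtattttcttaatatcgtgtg
Tas2r102: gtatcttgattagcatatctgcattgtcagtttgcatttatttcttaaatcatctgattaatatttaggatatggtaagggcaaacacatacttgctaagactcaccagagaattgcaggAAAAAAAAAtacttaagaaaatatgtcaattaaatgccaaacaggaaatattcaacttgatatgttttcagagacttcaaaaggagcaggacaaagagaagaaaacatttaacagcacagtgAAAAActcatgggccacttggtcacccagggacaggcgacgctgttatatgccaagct
In the windows of Olfr1283, Vmn2r90 and Tas2r102 the first base of the gene opens an ATG. There the listed start is taken as a coding start, and where transcription begins is not given. The 11 matched starts were poor in G and C. The median over the 11 windows was 38.7% G or C and 2 CG dinucleotides, beside 52.7% and 7 over the 32851 mouse promoter windows of the same length. A run of AAAAA or TTTTT was in 7 of the 11 windows (63.6%) and in 42.7% of all. TATAAA, searched on both strands and able to share bases with a run of A, was in 4 of the 11 (36.4%) and in 13.6% of all. These letter matches describe the windows and say nothing of a factor.

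Of the 175 genic shifts between susceptible and control mice, 36 (20.6%, interval 14.8 to 27.3%) lay within 3000 bp of a gene start, the authors' promoter classes. Their share among the 5567 genic positions of changed occupancy in the same pair was 13.5% (12.6 to 14.4%). Within 1000 bp of a start the shares were 10.3% (6.21 to 15.8%) of shifts and 4.33% (3.81 to 4.90%) of occupancy positions. The promoter share of shifts was thus above that of occupancy changes for this pair, and it was 20.9% without the gene Sfi1, but with chromosome 1 included it was 10.7%. Between resilient and control mice, 20 of 158 shifts (12.7%, 7.91 to 18.9%) lay within 3000 bp, with 12.7% of occupancy positions. For resilient against susceptible, 17 of 148 did (11.5%, 6.84 to 17.8%), with 12.2% of occupancy positions. The intervals of the 3 tables overlap, and the tables share groups.

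**Figure D1:**
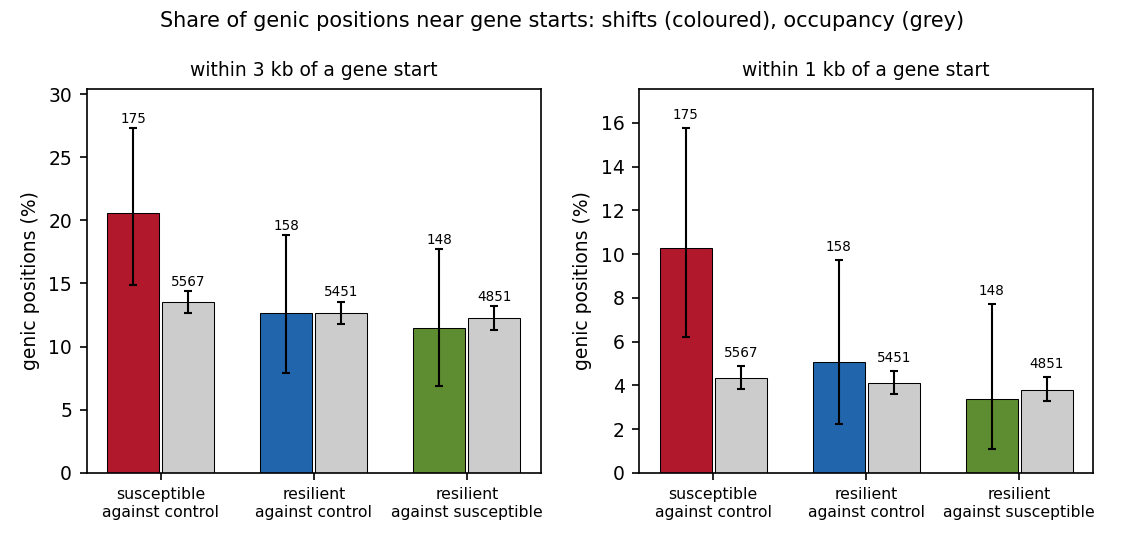
Share of genic positions (%) within 3 kb (left) and 1 kb (right) of a gene start, for listed shifts (coloured bars) and positions of changed occupancy (grey bars), per pair of groups; bars carry exact 95% binomial intervals and the number of genic positions above them. Shifts exceeded occupancy positions for susceptible against control, at 20.6% against 13.5% within 3 kb and 10.3% against 4.33% within 1 kb.

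Between susceptible and control mice, 18 shifts in 17 genes lay within 1000 bp of a start. Those nearest were in the olfactory receptor gene Olfr1342, whose nucleosome 33.5 bp into the gene moved 70 bp upstream, in Sfi1 at 84.5 bp, with 70 bp upstream, and in Olfr1283. In each of these a nucleosome listed just inside the gene had moved in the direction of its listed start, and at Olfr1342 past it. For Olfr1283 that start is the first base of an ATG, so a move toward the place where transcription begins is not shown. For Olfr1342 and Sfi1 no window was matched, so what kind of start is listed was not seen. Rn45s, the precursor of the ribosomal RNAs, differed from Olfr1342, Sfi1 and Olfr1283, with a nucleosome 120.5 bp into the gene that moved 80 bp downstream. Among genes of immune or neural function, the nucleosome 687.5 bp into Tlr4, the receptor for bacterial lipopolysaccharide, moved 80 bp upstream. That at 973.5 bp in Nxph1, whose product binds neurexins at synapses, moved 70 bp upstream. Rbp7, a retinol-binding protein gene, had a nucleosome at 915.5 bp that moved 60 bp upstream, and Tas2r102 one at 743.5 bp that moved 70 bp upstream. On the other side of the start, the nucleosome 576.5 bp before Psg22, a pregnancy-specific glycoprotein gene, moved 80 bp upstream. That 712.5 bp before Vmn2r90 moved 60 bp downstream, and that 922.5 bp before the zinc finger gene Zfp329 moved 70 bp upstream. The other genes of this group were 4933404G15Rik, Rps19-ps3, 5830411N06Rik, Gm17019, 1700001F09Rik and G530011O06Rik, predicted genes, clones or a pseudogene.

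Fewer such positions were listed for resilient mice. Against controls, 8 of 158 shifts (5.06%, 2.21 to 9.73%) lay within 1000 bp of a start, with 4.11% of occupancy positions. This interval overlaps that for susceptible against control, 6.21 to 15.8%, and the difference was not tested. Nucleosomes inside the gene moved upstream by 70 bp at Sfi1 (84.5 bp), 70 bp at the pheromone receptor gene Vmn1r159 (672.5 bp), 80 bp at Cyp3a11 (698.5 bp) and 70 bp at Nlrp4f (882.5 bp), a gene of the NOD-like receptor family. At Rn45s the nucleosome at 500.5 bp moved 60 bp downstream. Before the start, Gm13247 had a downstream shift of 60 bp at 92.5 bp and Olfr1313 an upstream shift of 80 bp at 763.5 bp. The remaining shift, at 4930545E07Rik, was an upstream one of 80 bp at 77.5 bp. Against susceptible mice, 5 of 148 shifts (3.38%, 1.11 to 7.71%) lay within 1000 bp, with 3.79% of occupancy positions. An upstream shift of 60 bp was at Pate2 (378.5 bp), a gene of small secreted proteins of the reproductive tract. Downstream shifts were at Gm15319 (70 bp), 4930443O20Rik (80 bp), Sfi1 (70 bp, 415.5 bp before its start) and Chi3l3 (80 bp, 949.5 bp before its start), which encodes a chitinase-like protein of macrophages.

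Inside the first 1000 bp of genes, upstream shifts outnumbered downstream ones in both comparisons with controls. For susceptible against control 8 of 11 shifts pointed upstream and 3 downstream, and for resilient against control 5 of 6 and 1 of 6. For resilient against susceptible it was 1 of 3 upstream. The downstream shares were 27.3% (6.02 to 61.0%), 16.7% (0.421 to 64.1%) and 66.7%. All 3 intervals include an even split, as do those without Sfi1, at 3 of 10 and 1 of 5 downstream for the comparisons with controls. The control group enters both of these comparisons, and 1 Sfi1 position is in both.

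Farther out, between 1000 and 3000 bp from the start, 18 shifts lay in the susceptible-against-control table, 12 in the resilient-against-control table and 12 in the resilient-against-susceptible table. Of these, 8 of 18, 8 of 12 and 9 of 12 pointed downstream. The genes named here were picked after their values were seen and do not mirror these proportions. Downstream shifts of 80 bp for susceptible against control were at Mavs (2453.5 bp), the mitochondrial adaptor of RNA sensing, and at Dsg2 (2045.5 bp), a desmosomal cadherin gene. Itgax, the integrin of dendritic cells and macrophages, had one of 70 bp at 2979.5 bp before its start, and Mmp3, a matrix metalloproteinase gene, an upstream shift of 70 bp at 1289.5 bp before its start. Resilient against control mice had downstream shifts at Fermt1 (70 bp, 1189.5 bp before the start), an adhesion adaptor gene, and Trem3 (60 bp, 2526.5 bp into the gene), a myeloid receptor gene. For resilient against susceptible, the shifts before the starts of Ncam1, the neural cell adhesion molecule (70 bp, at 1997.5 bp), Osm, the cytokine oncostatin M (80 bp, at 2765.5 bp), and Gprc5b, an orphan receptor gene (70 bp, at 2666.5 bp), all pointed downstream. Those before Maml2, a coactivator of Notch (80 bp, at 1310.5 bp), and Cabp5, a neuronal calcium-binding protein gene (80 bp, at 1341.5 bp), pointed upstream.

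Over all promoter positions, the direction leaned downstream in the resilient-against-susceptible table alone, where 13 of 17 shifts (76.5%, 50.1 to 93.2%) pointed downstream. Without the 3 positions of Sfi1 this was 10 of 14 (71.4%, 41.9 to 91.6%), an interval that includes an even split. For susceptible against control 14 of 36 (38.9%, 23.1 to 56.5%) pointed downstream, and for resilient against control 10 of 20 (27.2 to 72.8%). The susceptible mice are the first-named group in one of these tables and the second-named in another, so opposite leanings there are not separate observations.

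**Figure D2:**
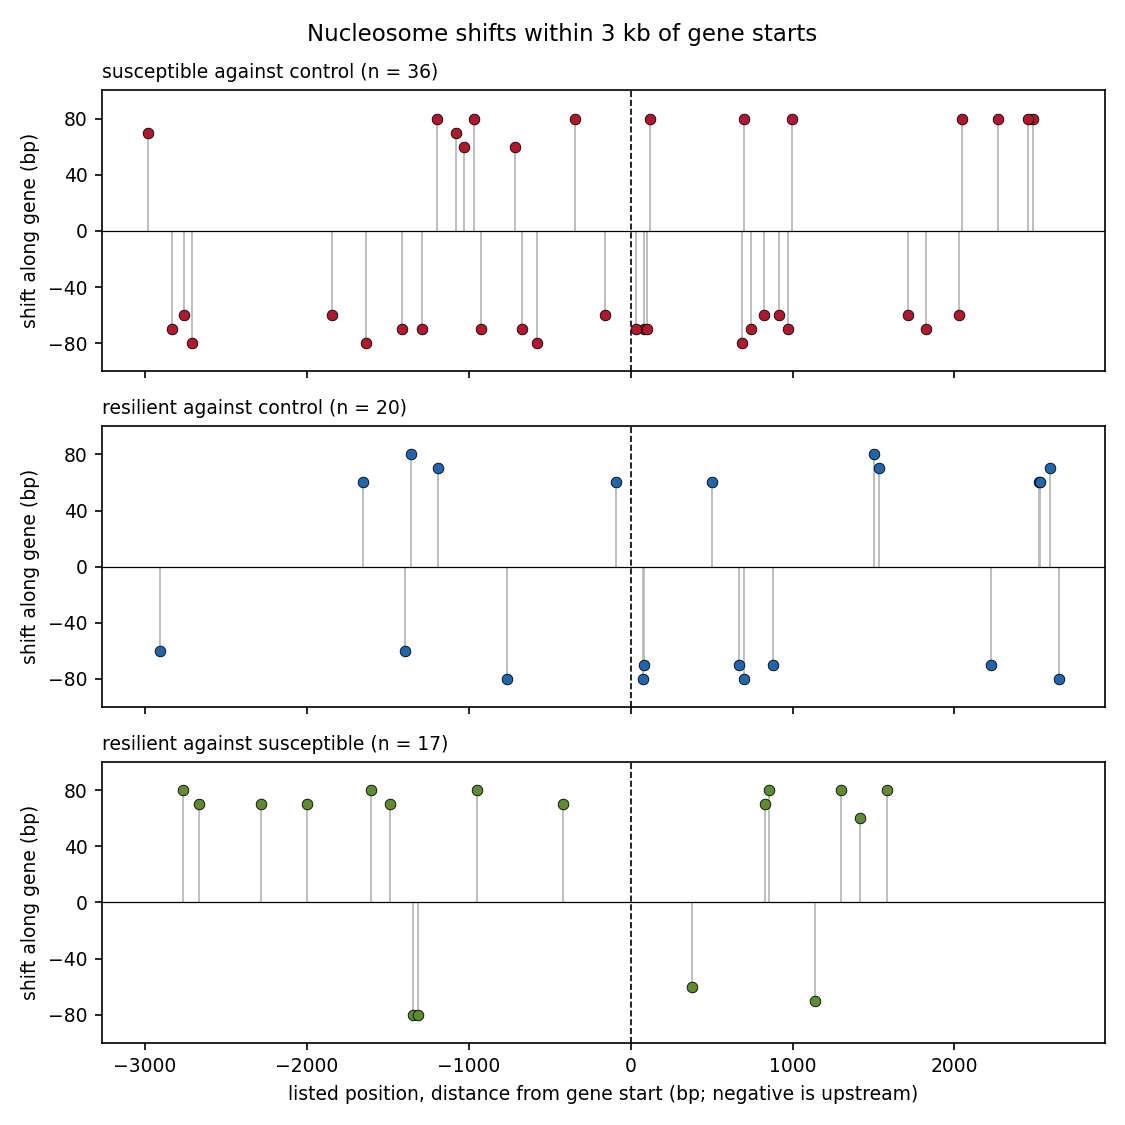
Shift along the gene (bp; positive is downstream) against the distance of the listed position from the gene start (bp; negative is before the start) for all 73 promoter shifts, in 1 panel per pair of groups. Of those, 36 lay in the susceptible-against-control panel; in the first 1000 bp of genes 8 of its 11 shifts and 5 of the 6 for resilient against control pointed upstream.

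Chemosensory receptor genes, a family singled out after the values were seen, made up many of the promoter positions. Olfactory, vomeronasal and taste receptor genes held 8 of the 36 promoter shifts for susceptible against control, 4 of the 20 for resilient against control and 2 of the 17 for resilient against susceptible. Over the 3 tables that is 14 of 73 (19.2%, 10.9 to 30.1%), beside 11.8% (10.5 to 13.3%) of the occupancy positions in promoter classes, and 4 of the 408 shifts in gene bodies. These genes are short, with a median length of 966 bp against 36885 bp over the 6691 genes named in the H3 tables, so that most positions within them count as promoter. The family has many near-identical copies, whose reads can be assigned to the wrong copy. How the authors treated such reads is not given in the sources used here.

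Within genes as a whole, shifts had no common direction relative to transcription. The downstream share was 48.0% (84 of 175, 40.4 to 55.7%) for susceptible against control, 46.2% (73 of 158, 38.3 to 54.3%) for resilient against control and 45.9% (68 of 148, 37.7 to 54.3%) for resilient against susceptible. Without Sfi1 these shares were 50.3%, 48.6% and 47.6%. With each gene counted once they were 47.2%, 47.3% and 46.5%.

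Strand was examined next. For susceptible against control, 50 of 88 shifts in genes on the plus strand pointed downstream and 34 of 87 in genes on the minus strand, so positive shifts were the more frequent on both strands in that table. Positive shifts made up 58.9% (51.2 to 66.2%) of the genic positions in that table and 51.7% (46.7 to 56.7%) of the positions outside genes. Sfi1 and Gm13152 carried part of this: without Sfi1 the genic share was 57.1% (93 of 163, 49.1 to 64.8%), and without both 54.6% (83 of 152, 46.3 to 62.7%), and both intervals include an even split. In resilient against control mice these shares were 53.2% and 50.9%, and for resilient against susceptible 54.7% and 51.5%. Without both loci the genic shares were 50.7% and 51.7%. In the latter pair of comparisons, 31 of 63 and 32 of 63 shifts on the plus strand pointed downstream, and 42 of 95 and 36 of 85 on the minus strand.

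For susceptible against control the downstream share rose with the size of the shift. Of the shifts of 60 bp, 16 of 49 (32.7%, 19.9 to 47.5%) pointed downstream, of those of 70 bp 31 of 62 and of those of 80 bp 37 of 64 (57.8%, 44.8 to 70.1%). No such order was seen for resilient against control, with 25 of 53, 28 of 59 and 20 of 46, or for resilient against susceptible, with 21 of 40, 25 of 60 and 22 of 48. The intervals for 60 and 80 bp overlap in the susceptible-against-control table. Several of its 60 bp shifts lay in Sfi1, where 10 of 12 shifts pointed upstream, and the shares by size were not recomputed without Sfi1. Whether the tables differ in this was not tested. By distance, the downstream share for susceptible against control was 16 of 37 from 1000 to 10000 bp into the gene, 34 of 69 from there to 100000 bp, and 24 of 40 beyond. For resilient against control the same bins held 16 of 34, 36 of 77 and 16 of 34, and for resilient against susceptible 13 of 27, 28 of 73 and 17 of 35. In neither of these did the downstream share go up with each bin.

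**Figure D3:**
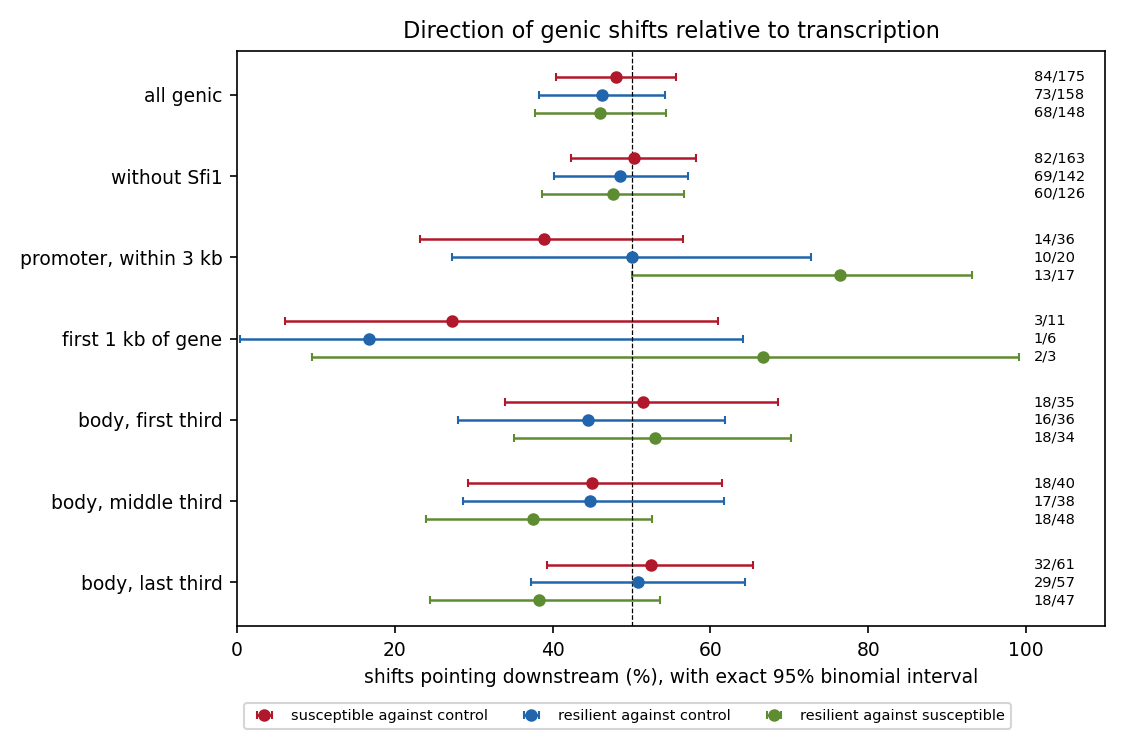
Share of shifts that point downstream (%), with exact 95% binomial intervals, for all genic shifts and for subsets by place, per pair of groups; the fractions at the right give downstream shifts over all shifts of the row. The intervals include an even split except that of the promoter row for resilient against susceptible, whose lower end is 50.1%; the promoter row ranges from 38.9% for susceptible against control to 76.5% for resilient against susceptible.

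Gene bodies were divided into 3 equal parts. For susceptible against control, 35 shifts lay in the first part, 40 in the middle and 61 in the last, with 3 just past the gene end. The last part thus held 43.9% (35.5 to 52.6%) of gene body shifts and 37.4% (36.0 to 38.8%) of gene body occupancy positions. It held 57 of 138 (41.3%) for resilient against control, with 37.6% of occupancy positions, and 47 of 131 (35.9%) for resilient against susceptible, with 35.9% of occupancy positions. The interval of each share includes the share among occupancy positions, so no placement within gene bodies stood apart beyond counting error. In the table of resilient against susceptible mice the middle part held 48 shifts.

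A handful of loci held many of the shifts. The 8 genes with at least 2 shifts for susceptible against control held 39 of 175, the 6 for resilient against control held 35 of 158 and the 6 for resilient against susceptible held 40 of 148. Sfi1, which encodes a centrosomal protein, stood at the head of each table. On the minus strand of chromosome 11 (mm9, 3031853 to 3093466), it held 12 shifts for susceptible against control, 16 for resilient against control and 22 for resilient against susceptible. Upstream shifts prevailed there, with 10 of 12, 12 of 16 and 14 of 22. Its position 84.5 bp into the gene (3093382) was listed with an upstream shift of 70 bp in both comparisons with controls. The position 3454.5 bp into the gene was listed with 80 bp upstream for susceptible and 70 bp upstream for resilient mice against controls.

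**Figure D4:**
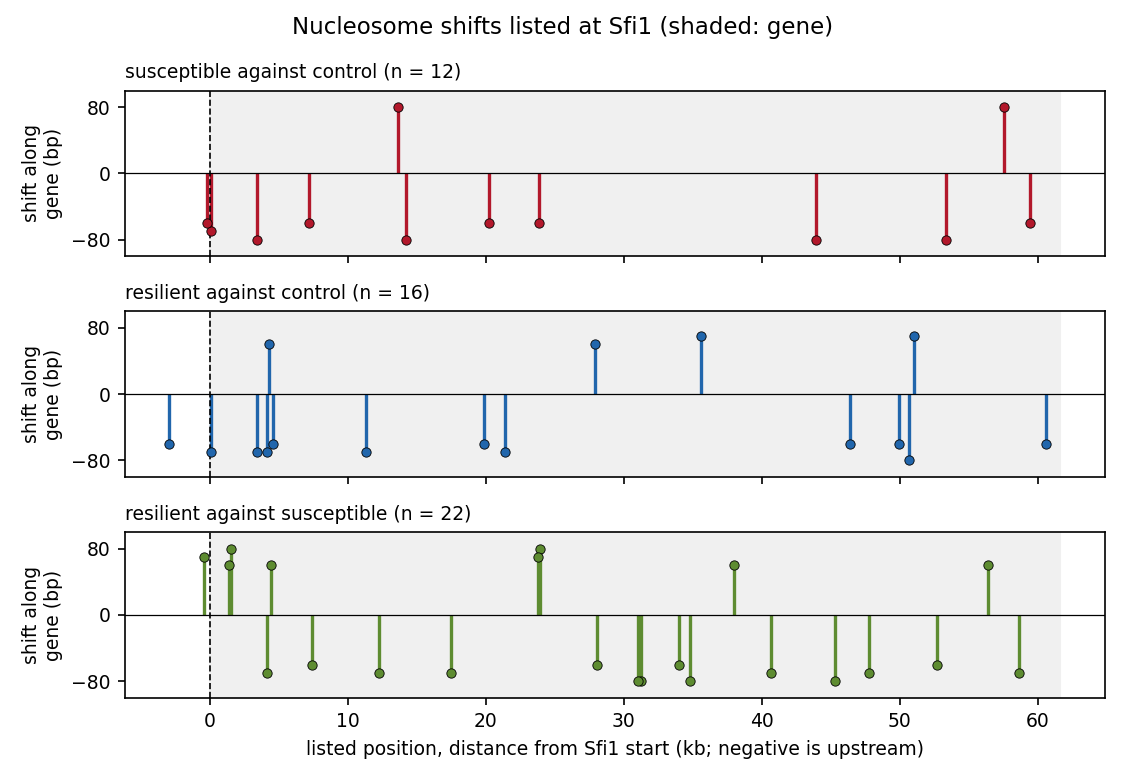
Shifts at Sfi1 along the gene (bp; positive is downstream) against the distance of the listed position from the gene start (kb; negative is before the start), in 1 panel per pair of groups, with the gene shaded. Upstream shifts prevailed with 10 of 12, 12 of 16 and 14 of 22, and both comparisons with controls list the position nearest the start with the same upstream shift of 70 bp.

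Gm13152, a predicted gene on the plus strand of chromosome 4, had downstream shifts at 10 of 11 positions for susceptible against control and 5 of 6 for resilient against susceptible, and an even split, 4 of 8, for resilient against control. Its shifts for susceptible against control were 80, 60, 70, 60, 80, 80, 60, -80, 80, 70 and 70 bp in order along the gene. The single upstream one, at 146850732, was listed with the same 80 bp upstream for resilient against control. Mid1 on chromosome X, which encodes a microtubule-bound ubiquitin ligase, had shifts of 60, -70, -80 and -60 bp for susceptible against control and 80 bp for resilient against control. For resilient against susceptible it had 70, 60, -70, -70, -80 and -70 bp. All lay in the last part of the gene, from 90798.5 bp of its 111176 bp onward. Rn45s had 80 bp downstream at each of 3 positions for susceptible against control, 60 bp downstream at 2 positions for resilient against control, and 60 bp upstream for resilient against susceptible. Rn45s stands for the many copies of ribosomal DNA, and Gm13152 and Sfi1 lie in stretches with close copies nearby, so the placing of their reads is uncertain. The part of such copies in these counts was not tested.

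Nlgn1, a postsynaptic adhesion molecule that binds neurexins, was the synaptic gene with the most shifts. Its positions for susceptible against control moved 80 bp downstream and 60 bp upstream. For resilient against control they moved 70 and 60 bp downstream and 80 bp upstream, and for resilient against susceptible 60 bp upstream. All 6 lay from 600867.5 to 633957.5 bp into a gene of 721467 bp, so 33090 bp of Nlgn1 held every one of its listed shifts while their directions were mixed.

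Most genes appeared once: 329 of the 355 were in 1 table, 20 in 2 and 6 in all 3. Any 2 of the tables share a group, so a gene in 2 tables is not a repeated observation. Hat1, a histone acetyltransferase gene, had a nucleosome at 71271192 on chromosome 2 in controls that moved 80 bp downstream in susceptible mice. The resulting place, 71271272, was listed with 70 bp upstream in resilient against susceptible mice. Chl1, a neural adhesion molecule, had 70 bp downstream at 103599222 on chromosome 6 in susceptible mice and then 60 bp upstream in resilient against susceptible mice. Dlgap2, a scaffold protein of the postsynaptic density, had 60 bp upstream at 14306872 on chromosome 8 and then 80 bp downstream. In these 3 genes the listed place in resilient mice lay within 10 or 20 bp of that in controls, a distance under the 60 bp of the smallest shift listed for genes. Rn45s, Mid1, Gm13247 and Sfi1 each had 1 further such position, which makes 7 in genes outside chromosome 1.

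Dab2, an endocytic adaptor gene, and Nell1, which encodes a secreted protein active in bone growth, were the reverse case. At the same position, 24423.5 bp into the gene, Dab2 had 70 bp downstream in susceptible and 80 bp downstream in resilient mice, both against controls. Nell1 had 80 bp and 70 bp upstream, 321772.5 bp into the gene. Clgn, a chaperone gene of the testis, had 70 bp downstream in susceptible and 80 bp downstream in resilient mice at 28252.5 and 20582.5 bp. Ccdc170 alone among the genes with 1 shift in each comparison with controls had opposite directions, with 60 bp upstream in susceptible mice at 17657.5 bp and 80 bp downstream in resilient mice at 37497.5 bp.

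The remaining genes in 2 tables were mostly listed once in each, at different positions. Fam19a1, which encodes a secreted chemokine-like protein of the brain, had 70 bp upstream for susceptible against control and 70 bp downstream for resilient against susceptible. Dnahc6, an axonemal dynein gene, had 60 bp downstream and 70 bp upstream in the same 2 comparisons, and Piezo2, a mechanically gated ion channel, 80 and 60 bp upstream. Dync1i1, a dynein intermediate chain of neurons, had 60 bp upstream for resilient mice against both other groups. Itga8, an integrin gene, had 60 bp upstream against controls and 60 bp downstream against susceptible mice. Pisd-ps3, a pseudogene next to Sfi1, had 80 and 70 bp downstream and 60 bp upstream at 2 positions for resilient against control, and 60 bp downstream for resilient against susceptible. Gm13247, which was in all 3 tables, had 70 bp downstream at 2 positions and 80 bp upstream at 1 for susceptible against control, 80 bp upstream and 60 bp downstream for resilient against control, and 80 bp upstream for resilient against susceptible. Piezo2 and Dync1i1 thus had upstream shifts only. Directions were mixed in the other genes of this paragraph, at Pisd-ps3 and Gm13247 also within 1 comparison.

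**Figure D5:**
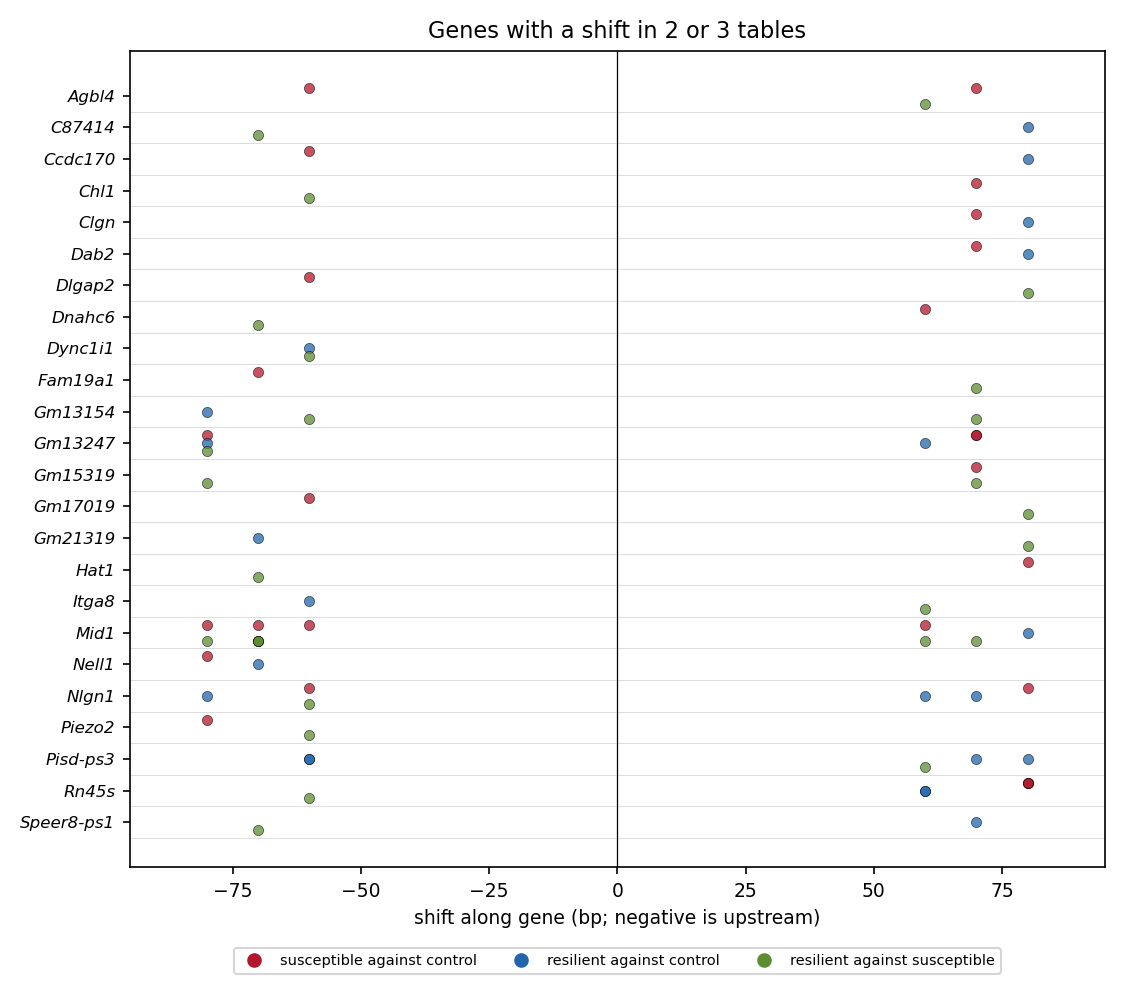
Shift along the gene (bp; positive is downstream) for each listed position in the genes found in 2 or 3 of the authors' tables, 1 row per gene, coloured by pair of groups; Sfi1 and Gm13152, with many positions, are not drawn, and points that coincide look darker. Dab2 and Clgn have downstream shifts, and Nell1 upstream shifts, for susceptible and for resilient mice against controls, while Hat1, Chl1 and Dlgap2 have opposite directions for susceptible against control and resilient against susceptible.

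Genes of the neuron, of chromatin and of the response to stress were counted by list. Of the 6691 genes named in any H3 table outside chromosome 1, 144 (2.15%) had a genic shift for susceptible against control, 129 (1.93%) for resilient against control, 114 (1.7%) for resilient against susceptible and 355 (5.31%) in any table. Of 232 named genes in 17 lists of neural, chromatin, stress and cell marker genes, 7 (3.02%), 7 (3.02%) and 10 (4.31%) held one in these tables, and 21 (9.05%) in any. Each share was above that of all named genes. The intervals for both comparisons with controls, 1.22 to 6.12%, include the share of all named genes, and that for resilient against susceptible was 2.09 to 7.78%. The lists also hold fragile-site and very long genes, which gave 7 of the 21. The lists are not complete, and neural genes with a shift such as Chl1, Dlgap2 and Nxph1 are not in them. Their 28 shifts were 14 downstream and 14 upstream. Genes with a shift were longer, with a median of 58791 bp against 36096 bp for genes with an occupancy position alone, and many of the listed genes are long. The part of length in these counts was not tested.

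The lists by role are small. Their shares with a shift in any table ran from 4.65% for neural adhesion to 13.8% for cyclic nucleotide and calcium signalling. Of all named genes 5.31% held one. Median lengths were 394362 bp in the glutamate list, 363853 bp in the channel list and 456898 bp in the adhesion list, against 36885 bp over all named genes. No list was tested. The dopamine, opioid, serotonin and acetylcholine list had 1 of 11 genes. This was Slc6a3, the dopamine transporter, with 80 bp upstream at 37337.5 bp for resilient against susceptible. Of the glutamate list 2 of 27 held a shift, Nlgn1 and the AMPA receptor subunit Gria4, with 60 bp upstream at 115792.5 bp for resilient against susceptible. Of the listed voltage-gated and potassium channels 2 of 19 did, both for resilient against susceptible: Kcnq1 with 70 bp downstream and Kcnh7 with 70 bp upstream. The list does not hold every channel gene. Outside it, and picked after their values were seen, the potassium channel genes Kcnc2 (80 bp downstream), Kcnj5 and Kcnk10 (60 bp upstream each) had a shift for susceptible against control, and Kcnmb2 (80 bp upstream) for resilient against susceptible. Of the neural adhesion and guidance list 2 of 43 did, Ncam1 and the netrin receptor gene Unc5d, with 80 bp upstream for resilient against control. The list of cyclic nucleotide and calcium signalling had 4 of 29: the cAMP phosphodiesterase Pde4d with 80 bp upstream and the calcium release channel Ryr2 with 70 bp downstream for susceptible against control, and Pde3a and Creb5 with 60 bp upstream each for resilient against susceptible. Among the listed chromatin remodellers and histone modifiers, which do not include Hat1, 1 of 15 did, the remodeller Chd2, with 70 bp upstream for resilient against susceptible. Of the growth factors and receptors 1 of 16 did, Fgfr2, with 60 bp downstream for susceptible against control.

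The list of fragile-site and very long genes had the most. Of its 27 named genes 7 (25.9%) held a shift, beside 5.31% of all named genes, and the median length of the 27 was 1023681 bp. Those with a shift were Agbl4, Gpc5 and Lingo2 for susceptible against control, Astn2, Dpyd, Fhit and Ptprd for resilient against control, and Agbl4 again for resilient against susceptible. Their 9 shifts were 6 downstream and 3 upstream. No gene held a shift among 8 GABA genes, 3 immediate early genes, 4 stress hormone genes, and the named markers of medium spiny neurons (5), astrocytes (4), microglia (5), oligodendrocytes (3) and endothelium (9). Of 6 markers of cortical excitatory neurons, Cux2 had 60 bp downstream for resilient against control.

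Shifted nucleosomes were set beside nucleosomes of changed occupancy. Within 200 bp the authors' occupancy table of the same pair listed a position for 6 of 175, 4 of 158 and 3 of 148 genic shifts. These 13 lay in Sfi1, Gm13152, Mid1, Rn45s and Grk5, a kinase of G protein-coupled receptors. The share for other positions was not computed, so whether these counts are low or high cannot be said.

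The deposited ACF1 segmentations divide the genome into 2 states, and nothing in them says which state stands for binding. The rarer state is called a segment here. Within 1000 bp of a segment of any group lay 40 of 175 genic shifts (22.9%, 16.9 to 29.8%) for susceptible against control, 36 of 158 (22.8%, 16.5 to 30.1%) for resilient against control and 43 of 148 (29.1%, 21.9 to 37.1%) for resilient against susceptible. Sfi1 provided 12, 16 and 22 of these, and without it the shares were 17.2%, 14.1% and 16.7%. Shifts outside genes had 17.8%, 16.5% and 14.6%. Genic occupancy positions had 1.99%, 2.17% and 2.54%, and 1.37%, 1.75% and 2.01% without Sfi1. Of the genic shifts near a segment without Sfi1, Gm13152 gave 6 of 28, 5 of 20 and 5 of 21. Rn45s gave 3, 2 and 1 of them. The placing of reads at these loci is uncertain, and its part in these shares was not tested. In all, 31 genes held a shift near a segment. Beside Sfi1, those named above were Gm13152, Rn45s, Pisd-ps3, Gm13247, Gm15319, Gm17019, 1700001F09Rik, Nlgn1, Chl1, Dlgap2, Mid1, Maml2 and Grk5. Near segments 20 of 40 shifts pointed downstream for susceptible against control, and 64 of 135 away from them. The numbers for resilient against control were 16 of 36 and 57 of 122, and for resilient against susceptible 19 of 43 and 49 of 105.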

How the data were processed

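H3 was profiled by MNase ChIP-seq in control, susceptible and resilient mice, and ACF1 by ChIP-seq. The submitters' processing notes name CASAVA 1.8.2 and the build mm9. The aligner, nucleosome caller, selection threshold and pooling of replicates are not given in the sources used. Per the labels, H3 libraries were size-selected at 200 to 300 bp, amplified with 15 PCR cycles and read over 100 bp, and 10 mice were pooled per replicate. The authors' deposited tables give each selected position with its signed shift in bp or an Up or Down mark, the nearest gene, a class and the distance to the gene start. They hold no counts, errors or p-values. Of the 15 samples, the 3 H3 and the 3 ACF1 samples were used; the others were not analysed here.

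From these tables shifts were turned by strand, counted and set against the occupancy positions, with exact Clopper-Pearson 95% intervals (scipy 1.17.1, pandas 2.3.3, numpy 2.4.6, Python 3.11.15, matplotlib 3.10.9). The strand rule was tested on simulated data. The 3 parts of gene bodies used the listed gene bounds. Transcript accessions matched RefSeq (GRCm38.p6) for 458 of 481 members. Genes were named by rule: a shift within 1000 bp of the start, at least 2 shifts in 1 table, shifts in 2 or 3 tables, membership of a list, or large shifts; genes from 1000 to 3000 bp, further potassium channel genes and the gene families were picked after their values were seen. Members and lists were chosen with earlier results of these data known. Coordinates are 1-based on mm9 except for the promoter windows. Alternatives were chromosome 1 included, X and Y left out, each gene counted once, a minimum size, promoter width and other windows, and, chosen after seeing the data, Sfi1, Sfi1 with Gm13152, or the members near segments left out.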

Additional observations from a re-analysis of the deposited data

Results flagged for a closer look

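Ccdc170, a coiled-coil protein gene on chromosome 10, had shifts of opposite direction in the 2 comparisons with controls. The authors' deposited tables list 60 bp upstream in susceptible and 80 bp downstream in resilient mice, a difference of 140 bp along the gene. The positions lie 17657.5 and 37497.5 bp into the gene and are thus different nucleosomes, the comparisons share the control group, and the difference was not tested.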

How the results depend on the processing

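Of 108 recomputed values, 97 stayed within 1.5 times the main count, or within the interval of the main value, and 11 moved. With chromosome 1 included, susceptible against control had 1256 genic shifts in 571 genes and a promoter share of 10.75%. With promoters as the first 1000 bp on either side, the promoter shares were 10.29% for susceptible against control, 5.063% for resilient against control and 3.378% for resilient against susceptible, and the downstream share of promoter shifts for resilient against control was 25.0%. With shifts of at least 70 bp alone, resilient against control kept 105 and the median for susceptible against control was 80 bp. Shifts beside an occupancy position numbered 8 within 100 bp and 67 within 1000 bp. These follow from the positions each setting adds or removes. No paired analysis was possible because each pair of groups has 1 deposited table and no replicate of its own; for the same reason no replicate could be left out. Depth is unknown, and positions tested but not selected were not analysed here.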
